A study of Mus musculus with 18 samples.

Results

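The genes described here were the nuclear genes of oxidative phosphorylation, taken from the gene annotation of the array's probe sets as every symbol starting with Nduf, Uqcr, Atp5 or Cox4 to Cox8, plus Sdha to Sdhd and Cyc1. The rule found 89 of 20358 genes, measured by 490 probe sets that were annotated to a single symbol, with 1 to 20 probe sets for each gene. Complex I had 35 of these genes, complex II 4, complex III 8, complex IV 20 and complex V 15. The remaining 7 shared the prefixes without being subunits: Ndufaf1 to Ndufaf4, Atp5s and Atp5sl are related to the assembly of the complexes, and Cox4nb belongs to a complex of the endoplasmic reticulum membrane. Gene expression was measured on 18 arrays from 6 male FVB/N mice aged 10 weeks, 3 MKR and 3 wild type (WT), with 1 array of fat, 1 of liver and 1 of skeletal muscle from each mouse. The labels describe MKR as a mutation in the skeletal muscle IGF1 receptor, and the study used these mice as a model of type 2 diabetes against healthy mice. The promoter that drives the mutant receptor is not described in the sources used here, nor are the muscle and the fat depot that were taken, and the tissues were whole, so the RNA came from all cell types in them. In such bulk samples fewer cells of a type and less RNA per cell cannot be told apart.

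Oxidative phosphorylation is the last stage of respiration in the inner mitochondrial membrane. Complexes I and II pass electrons from NADH and succinate to ubiquinone, complex III passes them on to cytochrome c, and complex IV, cytochrome c oxidase, reduces oxygen. The proton gradient that complexes I, III and IV build drives complex V, the ATP synthase. Most subunits are made from nuclear genes, and several small subunits of complex IV exist as a form found in most tissues and a form found in heart and skeletal muscle, encoded by separate genes.

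Expression is given as log2 intensity, the mean over the probe sets of a gene, and differences are differences of log2 intensity with n = 3 arrays in each group unless stated. A gene was called different where the limma test gave a Benjamini-Hochberg adjusted p under 0.05 over all 20358 genes. Levels are compared between groups for one gene and never between genes, because probes differ in brightness. The array medians over all genes lay between 5.46 and 5.61. The tissues carried their own markers: 14 skeletal muscle markers averaged 11.75 to 12.00 on muscle arrays and 5.06 to 5.42 elsewhere, and hepatocyte markers averaged 12.12 to 12.26 on liver arrays and at most 6.53 elsewhere. Igf1r, the receptor the labels name, read 8.53, 8.32 and 8.51 in MKR muscle and 6.75, 6.14 and 6.42 in WT muscle, without overlap, a difference of 2.02 (4.05-fold, adjusted p = 0.169, or 1.99e-05 without the array named next). MKR fat replicate 1 stood apart. On it 23 of 26 epididymis markers were above every other fat array. The median excess of the 26 markers above the mean of the other fat arrays was 5.58. On MKR fat replicate 1 the adipocyte markers averaged 9.45, against 10.57 to 10.77 on the other fat arrays. The main comparisons with MKR fat are therefore given with and without it.

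The clearest pattern among these genes was the exchange of complex IV isoforms between tissues. Cox6a2, Cox7a1 and Cox8b, the heart and skeletal muscle forms of 3 small subunits, were 32.8-fold, 41.5-fold and 122-fold higher in WT muscle than in WT liver. The common forms Cox6a1 and Cox8a were lower in muscle than in both other tissues, whereas the common form Cox7a2 passed the test in no WT tissue comparison.

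Cox6a2 read 10.70, 10.63 and 10.70 in WT muscle, 5.53, 5.83 and 5.57 in WT liver, and 5.53, 5.53 and 5.99 in WT fat. The muscle arrays were far above all others, and liver and fat overlapped. The difference was 5.03 ± 0.12 (SE) from liver and 5.0 from fat (adjusted p = 1.19e-15 and 2.71e-15, limma). Its common counterpart Cox6a1 ran the other way, at 7.64, 7.52 and 7.61 in WT muscle, 9.95, 9.71 and 9.86 in WT liver, and 9.42, 9.65 and 9.60 in WT fat. Cox6a1 was 4.76-fold lower in muscle than in liver (-2.25 ± 0.18, adjusted p = 2.14e-08) and 3.90-fold lower than in fat (-1.96, adjusted p = 2.36e-07). All 4 probe sets of each gene had the direction of the gene mean in both comparisons.

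Cox8b read 12.00, 11.87 and 11.76 in WT muscle, 6.87, 6.52 and 7.25 in WT fat, and 5.03, 4.99 and 4.81 in WT liver, so that no 2 tissues overlapped. It was 6.93 ± 0.26 higher in muscle than in liver (adjusted p = 9.43e-13) and 5.0 ± 0.26 higher than in fat (adjusted p = 2.30e-10). It was also higher in fat than in liver, by 1.93 ± 0.26 (3.82-fold, adjusted p = 1.86e-05), and the other 2 muscle forms were not called there. Brown adipocyte markers averaged 5.06 to 5.19 on the fat arrays. Cox8a, the common form, read 7.35, 7.15 and 7.14 in WT muscle, 9.05, 8.55 and 8.74 in WT liver, and 8.91, 8.92 and 8.95 in WT fat. The muscle arrays were below all others, by 1.57 ± 0.13 on the log2 scale from liver (2.97-fold, adjusted p = 3.39e-08) and 3.29-fold from fat (adjusted p = 2.32e-08).

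Cox7a1 read 10.87, 10.69 and 10.70 in WT muscle, 5.40, 5.47 and 5.26 in WT liver, and 5.61, 5.50 and 5.69 in WT fat. It was 5.37 ± 0.14 higher in muscle than in liver (adjusted p = 5.12e-15) and 5.15 higher than in fat (35.5-fold, adjusted p = 1.97e-14). Cox7a2 was 9.16 ± 0.13 (SD, n = 3) in WT muscle, 9.10 ± 0.19 in WT liver and 8.89 ± 0.06 in WT fat. Its muscle minus liver difference was 0.06 ± 0.13 (SE, adjusted p = 0.756) and its muscle minus fat difference 0.27 (adjusted p = 0.113), so the Cox7a pair differed between tissues through the muscle form. Subtracting the common form from the muscle form within each array gave a shift from WT liver to WT muscle of 7.28 for Cox6a, 5.31 for Cox7a and 8.50 for Cox8. From WT fat to WT muscle the shifts were 6.96, 4.88 and 6.72.

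**Figure D1:**
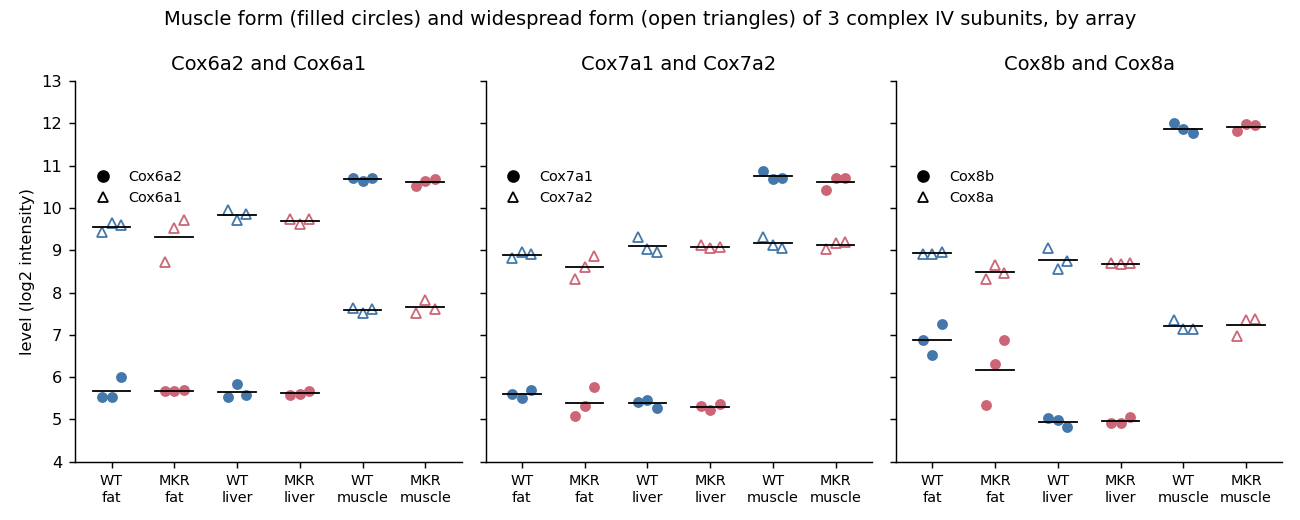
Log2 intensity (vertical axis) of the muscle form (filled circles) and the common form (open triangles) of Cox6a, Cox7a and Cox8 on each of the 18 arrays, with group means as lines, WT in blue and MKR in red. Cox6a2, Cox7a1 and Cox8b are above 10 on all 6 muscle arrays, Cox6a1 and Cox8a are lowest there, and Cox7a2 lies between 8.31 and 9.32 throughout.

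The genotype did not move this pattern by an amount that passed the test. In MKR muscle Cox6a2 read 10.52, 10.63 and 10.69, Cox7a1 10.43, 10.72 and 10.72, and Cox8b 11.82, 11.99 and 11.95, which overlapped the WT values for all 3 genes. The MKR minus WT differences were -0.06, -0.13 and 0.04, and the within-array isoform shifts from WT to MKR muscle were -0.12, -0.09 and 0.02 for Cox6a, Cox7a and Cox8. In fat Cox8b read 5.34, 6.32 and 6.88 in MKR mice against 6.87, 6.52 and 7.25 in WT mice, which overlapped. Its difference was -0.70 (adjusted p = 0.543), and -0.28 without MKR fat replicate 1, the array with the lowest value. In liver Cox8b read 4.91, 4.92 and 5.05 in MKR mice and overlapped the WT arrays.

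The sequences just upstream are shown for isoform pairs, because their muscle forms had the largest tissue differences of the gene group. The 250 bases before the RefSeq transcription start (GRCm38.p6) are given 5′ to 3′ for the Cox7a and Cox8 pairs, muscle form first, with matches to the E-box letters CANNTG on either strand in capitals. The promoter table had no entry for Cox6a2.
Cox7a1 (chr7:30183921-30184170, plus strand): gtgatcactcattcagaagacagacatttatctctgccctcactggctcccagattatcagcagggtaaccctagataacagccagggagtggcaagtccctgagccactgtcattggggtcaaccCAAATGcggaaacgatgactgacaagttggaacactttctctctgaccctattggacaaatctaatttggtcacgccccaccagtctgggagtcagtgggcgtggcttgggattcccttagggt
Cox7a2 (chr9:79759854-79760103, minus strand): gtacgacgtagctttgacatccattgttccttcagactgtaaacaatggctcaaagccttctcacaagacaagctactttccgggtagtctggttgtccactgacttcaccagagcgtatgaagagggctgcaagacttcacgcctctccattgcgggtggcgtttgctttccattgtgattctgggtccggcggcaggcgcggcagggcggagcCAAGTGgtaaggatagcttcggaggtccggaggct
Cox8b (chr7:140900447-140900696, minus strand): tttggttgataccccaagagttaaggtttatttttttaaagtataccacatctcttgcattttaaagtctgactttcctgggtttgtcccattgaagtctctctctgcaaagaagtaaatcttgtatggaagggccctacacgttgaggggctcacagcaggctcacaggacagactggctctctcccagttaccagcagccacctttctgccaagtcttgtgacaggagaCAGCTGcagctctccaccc
Cox8a (chr19:7217617-7217866, minus strand): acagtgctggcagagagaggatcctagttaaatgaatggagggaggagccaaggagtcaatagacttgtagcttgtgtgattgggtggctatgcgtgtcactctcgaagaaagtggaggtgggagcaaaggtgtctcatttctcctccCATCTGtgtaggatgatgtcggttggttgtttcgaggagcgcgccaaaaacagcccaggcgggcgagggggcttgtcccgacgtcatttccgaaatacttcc
Each of the 4 windows held 1 E-box match, and none held the MEF2 letters CTA and TAG with 4 bases of any kind between, the ERR letters AAGGTCA, the GABPA letters CCGGAAG or the NRF1 letters GCATGCGC. An E-box match is common: 66.22% of all 32851 promoter windows and 64.56% of the 79 windows of the 73 members in the table had one. The windows differed in their count of CpG dinucleotides, which was 4 for Cox7a1 and 1 for Cox8b against 14 for Cox7a2 and 11 for Cox8a. The median was 6 over all windows and 15 over the members' windows. Under 8 CpG were found in 8 of the 79 member windows and in 57.0% of all windows. Besides Cox7a1 and Cox8b these were Ndufc2 (4), Cox7b (5), and Atp5l, Ndufa3, Ndufb10 and Ndufs4 (7 each), which are not muscle forms. A low count was therefore not particular to the muscle forms. Among the member windows GABPA letters occurred in 16.46% against 6.91% of all windows, NRF1 letters in 11.39% against 2.26%, ERR letters in 6.33% against 4.08%, and MEF2 letters in 1.27% against 3.2%. The GABPA and NRF1 letters themselves contain a CpG, and the member windows were richer in CpG than all windows. The part of this in the shares was not tested. These are counts of letters, and binding was not measured.

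The other tissue-restricted forms of complex IV were at low intensity on every array. Cox6b2, Cox7b2 and Cox8c, known as testis forms, had WT group means between 5.09 and 5.64. On MKR fat replicate 1, which carried epididymis transcripts, they read 5.30, 5.73 and 5.25, none above the highest of the other fat arrays. Of the 16 germ cell markers, 8 were above every other fat array there. The median excess of the 16 above the mean of the other fat arrays was 0.0872. Cox4i2, the form of subunit IV known from lung, was 0.38 higher in WT fat than in WT liver (adjusted p = 0.0130), a call lost with the median of the probe sets (adjusted p = 0.0537) and without WT fat replicate 3 (adjusted p = 0.0568). Ndufa4l2, a paralog of the complex IV subunit Ndufa4 that responds to low oxygen, was 5.64 in WT muscle, 4.47 in WT liver and 5.55 in WT fat. It was higher in muscle and in fat than in liver, by 1.17 (adjusted p = 0.000435) and 1.08 (adjusted p = 0.00113).

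Across the whole gene group, expression was highest in muscle, intermediate in liver and lowest in fat. Between WT muscle and WT liver 70 of the 89 genes were higher in muscle and 3 were lower, where 21.5% and 18.9% of all genes were called in those directions. The median difference of the 89 genes was 0.70, against -0.01 over all genes. Between WT muscle and WT fat 76 were higher and 4 lower (18.3% and 19.5% of all genes), with a median of 1.08 against -0.02. The 3 genes below in muscle were Cox6a1, Cox8a and Cox4nb in both comparisons, with Cox6b2 the fourth gene below fat (adjusted p = 0.00214, or 0.0772 with the median of the probe sets). Of the 490 probe sets, 444 were higher in WT muscle than in liver and 441 were higher than in fat.

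Complex I, the largest complex, had 31 of its 35 genes higher in WT muscle than in liver (median 0.85) and 33 higher than in fat (median 1.26). All 6 measured core subunits were higher in muscle in both comparisons, with medians of 1.14 and 1.52. Most of them hold the flavin or iron-sulfur clusters of the electron path. Ndufs1, the largest subunit, averaged 10.54 in muscle, 9.12 in liver and 9.05 in fat (1.42 from liver, adjusted p = 2.18e-06, and 1.49 from fat, adjusted p = 2.13e-06). Ndufv1, which binds NADH, was 1.19 and 1.65 higher in muscle than in liver and fat, and its partner Ndufv2 was 1.13 and 1.54 higher. The accessory subunit Ndufb5 had the largest difference of the complex. It averaged 9.97 ± 0.09 (SD, n = 3) in muscle, 8.25 ± 0.30 in liver and 7.65 ± 0.15 in fat, which was 3.31-fold above liver (adjusted p = 1.01e-07) and 4.99-fold above fat (adjusted p = 5.46e-09). The 4 genes of the complex not called against liver were the accessory subunits Ndufa7 (0.36, adjusted p = 0.0825), Ndufb3 (0.43, adjusted p = 0.0787), Ndufa1 (-0.12, adjusted p = 0.667) and Ndufv3 (-0.35, adjusted p = 0.178). The last 2 had lower means in muscle than in liver.

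In complex II, succinate dehydrogenase, 3 of 4 genes were higher in WT muscle than in liver and all 4 were higher than in fat. The call of Sdhc from liver was lost on the deposited values as they stand (adjusted p = 0.0889, limma). It was also lost without WT muscle replicate 1 or 2 or WT liver replicate 2 or 3 (adjusted p from 0.0894 to 0.137, limma). The catalytic subunits Sdha and Sdhb were each 0.72 above liver, but from fat Sdhb differed by 1.64 (adjusted p = 5.19e-06) and Sdha by 0.79. In complex III 6 of 8 genes were higher than in liver and all 8 higher than in fat. Uqcrc1, a core protein of the complex, was 1.28 above liver (adjusted p = 7.44e-07) and 1.84 above fat (adjusted p = 1.66e-08), and Cyc1, cytochrome c1, was 0.83 and 1.22 above. Uqcrq averaged 8.37 in muscle and 8.40 in liver (-0.03, adjusted p = 0.926).

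Complex IV was the most divided complex. Of its 20 genes 13 were higher and 2 lower in WT muscle than in liver, and 12 were higher and 3 lower than in fat, with medians of 0.43 and 0.58. Among the 11 common forms 8 were higher and 2 lower in both comparisons. Without WT muscle replicate 1, Cox6b1, Cox7b and Cox7a2l were not called against liver (adjusted p = 0.0580, 0.0651 and 0.0869, limma). Cox5a, a subunit on the matrix side, was 1.04 above liver (adjusted p = 3.11e-06) and 1.81 above fat (adjusted p = 7.48e-09), and Cox4i1, the usual form of subunit IV, was 0.64 and 0.96 above. In complex V 14 of 15 genes were higher than in liver (median 0.78) and all 15 higher than in fat (median 0.94). From fat, the call of Atp5b was lost with the median of the probe sets (adjusted p = 0.119, limma). The call of Atp5g3 from fat was lost on the deposited values as they stand (adjusted p = 0.138, limma). It was also lost without WT fat replicate 1 or 2 or WT muscle replicate 1 or 3 (adjusted p from 0.0811 to 0.130, limma). Atp5b, the catalytic beta subunit, averaged 11.63 in muscle, 10.83 in liver and 11.05 in fat, and Atp5e, the epsilon subunit of the stalk, averaged 10.66, 9.73 and 8.49. Atp5e was 4.50-fold higher in muscle than in fat (adjusted p = 2.42e-08).

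**Figure D2:**
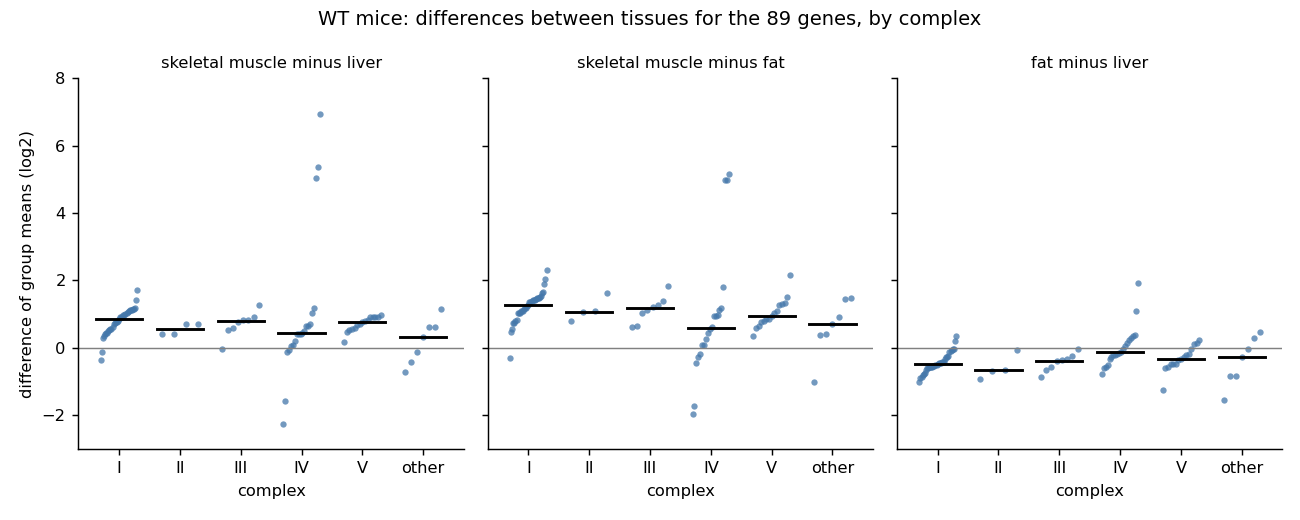
Log2 differences between WT tissues for each of the 89 genes (points), grouped by complex, with the median of each group as a line and the 7 genes that are no subunits as other. Most points of complexes I, II, III and V lie above 0 for muscle minus liver and muscle minus fat, and complex IV holds the points above 4 and the lowest points of both panels.

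Fat and liver differed less. In WT fat 45 of the 89 genes were lower than in WT liver (16.5% of all genes) and 7 were higher, with 35.4% of all genes called in either direction. The median difference was -0.38 against -0.01 over all genes. The lower genes included 24 of complex I (Ndufa12 by 1.03 on the log2 scale, adjusted p = 6.20e-06), 3 of complex II, 5 of complex III, 4 of complex IV and 6 of complex V. Sdhb was lower in fat (-0.92, adjusted p = 0.00143, or 0.0975 with the median of the probe sets), whereas Sdha differed by -0.07 (adjusted p = 0.752). Atp5e was lower by 1.25 on the log2 scale (adjusted p = 1.41e-05) and Atp5b was not called, with a difference of 0.22 (adjusted p = 0.199). The 7 higher genes were Cox8b, Ndufa4l2, Atp5s, Cox4i2, Cox8c, Cox6b2 and Cox4nb, so that 5 of them were complex IV genes and none was a common form. With the median of the probe sets Cox4i2, Cox6b2 (adjusted p = 0.339) and Cox8c (adjusted p = 0.450) were not called, and with arrays centred on their median Cox6b2 (adjusted p = 0.0691) and Cox8c (adjusted p = 0.0657) were not. Leaving out WT fat replicate 2, WT fat replicate 3 or WT liver replicate 3 also ended both of these calls (adjusted p from 0.0514 to 0.111). Atp5sl had the lowest value, at -1.55 (adjusted p = 1.36e-07).

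The same order of tissues was found in MKR mice. The group means ran muscle, liver, fat from highest to lowest for 67 of 89 genes in WT and 72 in MKR mice (70 without MKR fat replicate 1). MKR muscle had 64 genes higher and 4 lower than MKR liver (21.0% and 18.6% of all genes), with a median of 0.53. It had 78 higher (15.9% of all genes) and 3 lower than MKR fat, with 33.9% of all genes called in either direction and a median of 1.25. MKR fat had 67 lower and 4 higher than MKR liver (16.9% and 18.6%), with a median of -0.69. Without MKR fat replicate 1, MKR muscle had 77 genes higher and 4 lower than MKR fat (33.8% of all genes called in either direction, median 1.15), and MKR fat had 59 lower and 4 higher than MKR liver (36.7%, median -0.58). Calls shared by the genotypes with the same direction numbered 63, 79 and 47 genes for these 3 comparisons, and 66, 79 and 48 without that array.

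Other genes of mitochondrial respiration were described from the same arrays, where 21.5% of all genes were higher and 18.9% lower in WT muscle than in liver, and 18.3% higher and 19.5% lower than in fat. The 8 genes of ATP handling had 6 higher in WT muscle than in liver, led by Ckmt2, the mitochondrial creatine kinase of muscle (6.16, adjusted p = 2.14e-17), and Slc25a4, the muscle form of the ADP/ATP carrier (5.50, adjusted p = 3.53e-15). Of 36 assembly factors 15 were higher and 2 lower in WT muscle than in liver (median 0.33), and of 57 mitochondrial ribosomal proteins 23 were higher and 2 lower (median 0.30). Against fat the counts were 24 and 1 for the assembly factors and 42 and 0 for the ribosomal proteins. Of 17 regulators of mitochondrial genes 7 were higher and 2 lower in muscle than in liver. Ppargc1a, a coactivator of mitochondrial biogenesis, was 1.71 above liver (adjusted p = 1.95e-05) and 2.74 above fat (adjusted p = 1.44e-07), and Ppara, a fatty acid sensing receptor, was lower in muscle than in liver (-2.11, adjusted p = 1.04e-07). Cycs, cytochrome c, and Hccs, the lyase that attaches heme to it, were each 1.16 above liver. Of the 7 mitochondrially encoded genes measured, none passed the test between WT muscle and liver, and 2 were higher and 1 lower in muscle than in fat.

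In skeletal muscle the question was how the mutant mice differed from WT mice in these genes. None of the 89 genes was called, where 0.201% of all genes were. The MKR mean was lower for 69 of 89 genes, against 49.0% of all genes, and the median difference was -0.12 against 0.00 over all genes. At an unadjusted limma p under 0.05 there were 14 lower and 2 higher genes (5.89% and 4.64% of all genes), and 24 genes had all MKR arrays below all WT arrays (11.3% of all genes) with 2 the other way (10.5%). Complex I held 10 of the 14 lower genes and 13 of the 24, and 32 of its 35 genes had a lower mean, with a median of -0.15.

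The 6 core subunits of complex I all had lower means in MKR muscle, with a median of -0.31, and 5 of them had MKR arrays below all WT arrays. Ndufs8, an iron-sulfur subunit, had the smallest p of all members and read 7.05, 7.18 and 7.12 in MKR muscle and 7.71, 7.40 and 7.56 in WT muscle. The groups did not overlap, and the difference was -0.44 ± 0.13 (SE, adjusted p = 0.231, limma). Ndufb10, an accessory subunit, read 9.40, 9.50 and 9.45 against 9.88, 9.80 and 9.89 (-0.40, adjusted p = 0.299). Ndufs3 read 9.82, 9.77 and 9.79 against 10.18, 9.93 and 10.11 (-0.28, adjusted p = 0.330). Both had MKR arrays below all WT arrays, as did Ndufv1 (9.03, 9.15 and 9.14 against 9.70, 9.34 and 9.36) and Ndufs1 (10.28, 10.07 and 10.27 against 10.72, 10.46 and 10.44), whereas Ndufs7 overlapped. The median deviation of the 6 core genes from the mean of the WT muscle arrays was -0.35, -0.31 and -0.28 on the MKR arrays and 0.17, -0.10 and -0.05 on the WT arrays.

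**Figure D3:**
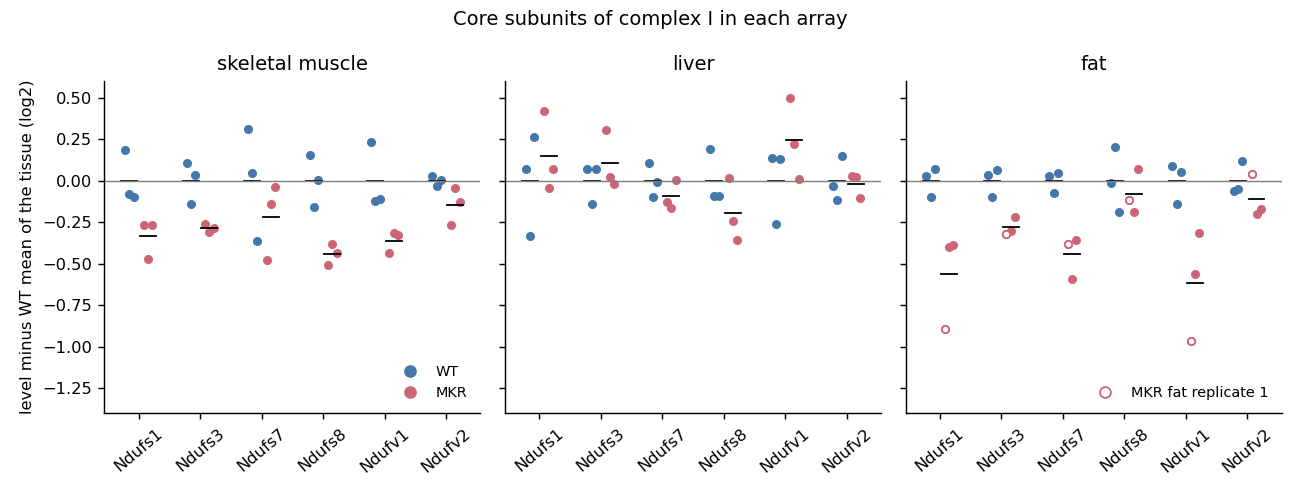
Log2 intensity of the 6 complex I core subunits on each array, as the deviation from the WT mean of the same tissue (vertical axis), by tissue and genotype, with group means as lines and MKR fat replicate 1 as open circles. In muscle the MKR points of Ndufs1, Ndufs3, Ndufs8, Ndufv1 and Ndufv2 lie below all WT points, and in liver all 6 genes overlap.

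Genes of the other complexes were chosen by their role or small p. Sdha read 10.69, 10.57 and 10.69 in MKR and 10.99, 10.91 and 10.84 in WT muscle, without overlap (-0.26). Cyc1 read 8.63, 8.74 and 8.84 against 9.26, 9.01 and 9.03, also without overlap (-0.36, adjusted p = 0.374). Atp5f1, the b subunit of the peripheral stalk, read 9.51, 9.28 and 9.35 against 9.80, 9.87 and 9.73, and all its MKR arrays were lower (-0.42 ± 0.15, adjusted p = 0.315). Cox5a overlapped, at 9.0, 9.39 and 9.01 against 9.60, 9.57 and 9.36 (-0.38, adjusted p = 0.290). In complex IV only 9 of 20 genes had a lower mean (median 0.02), against 4 of 4 in complex II, 7 of 8 in complex III and 12 of 15 in complex V. The 20 include Cox6b2, Cox7b2, Cox8c, Cox4i2 and Ndufa4l2, which were at low intensity. Their MKR means were higher, by 0.10, 0.26, 0.33, 0.15 and 0.03. Among the common forms Cox6a1, Cox6c, Cox7c and Cox8a had higher MKR means, and the others had lower ones.

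Over all 89 genes the median deviation was -0.19, -0.05 and -0.09 on the MKR muscle arrays and 0.12, -0.03 and -0.08 on the WT arrays, so the groups overlapped. The 9 slow fibre markers, which follow the fibre type of the piece taken, varied widely within both genotypes, at -0.82, 0.12 and 1.16 on the MKR arrays and 1.55, -0.68 and -0.87 on the WT arrays. WT muscle replicate 1 had the highest values of both lists. Without it 58 of 89 genes had lower MKR means and the median was -0.06. Then 6 were lower and 2 higher at an unadjusted limma p under 0.05. These shares of all genes were not counted without that array. With all 18 arrays 49.0% of all genes had lower means, and 5.89% were lower and 4.64% higher at that p. Skeletal muscle markers had lower MKR means in 13 of 14 (median -0.07), and none was called. The part of these markers in the result was not tested. With the median instead of the mean of the probe sets no member reached an unadjusted limma p under 0.05.

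In fat the MKR values were lower in all complexes, and again none of the 89 genes was called, where 0.0393% of all genes were. The MKR mean was lower for 82 of 89 genes, against 49.4% of all genes, and the median difference was -0.33 against 0.00 over all genes. At an unadjusted limma p under 0.05 there were 51 lower and 0 higher genes (4.25% and 3.53% of all genes), and 44 had all MKR arrays below all WT arrays (5.87%) with 0 the other way (5.85%). Without MKR fat replicate 1 the median was -0.22 against 0.02 over all genes, with 75 genes lower (44.8% of all genes) and 28 lower and 0 higher at an unadjusted p under 0.05 (4.99% each way). No gene of the 89 was called then either (0.152% of all genes), and 48 had both MKR arrays below all WT arrays (11.9%) with 3 the other way (16.2%).

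The lower values were spread over the complexes. The median difference was -0.33 in complex I, -0.43 in complex II, -0.38 in complex III, -0.30 in complex IV and -0.36 in complex V, and without MKR fat replicate 1 it was -0.24, -0.26, -0.27, -0.20 and -0.21. The 7 genes that were no subunits had medians of -0.05 and -0.08. All genes of complexes II, III and V had lower means (4, 8 and 15), and without that array 4, 8 and 14 did.

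Cox5b, a zinc-binding subunit of complex IV, had the smallest p and read 8.37, 8.51 and 8.91 in MKR fat and 9.16, 9.11 and 9.27 in WT fat. The groups did not overlap (-0.59 ± 0.13, SE, adjusted p = 0.294), and without MKR fat replicate 1, the lowest array, the difference was -0.47 (adjusted p = 0.209). Cox4i1 read 8.97, 9.31 and 9.85 against 9.95, 9.92 and 10.06 (-0.60, adjusted p = 0.399, and -0.40 without the array). It too was lowest on MKR fat replicate 1, and MKR fat replicate 3 came close to the WT arrays. Cox7a2l, which takes part in joining complexes III and IV, was high on MKR fat replicate 1 and low on the other MKR arrays, at 8.32, 7.88 and 7.79 against 8.25, 8.32 and 8.32. Its difference was -0.30 with the array and -0.46 without it, the smallest adjusted p of the group then (0.159).

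In complex I, Ndufs6, an accessory subunit, read 7.78, 8.01 and 7.86 in MKR fat and 8.35, 8.32 and 8.54 in WT fat, and all MKR arrays were lower (-0.52, adjusted p = 0.307, and -0.47 without MKR fat replicate 1). Ndufv1 read 6.85, 7.26 and 7.50 against 7.90, 7.68 and 7.87 (-0.61, and -0.44 without it). Some genes of the complex had small differences in fat: Ndufs8 at -0.08, Ndufs4 at -0.05, Ndufa11 at 0.07 and Ndufa12 at 0.14. Ndufs8 was thus the member with the smallest p in muscle and near 0 in fat. Its interaction muscle minus fat was not called (-0.36, adjusted p = 0.640, limma). Without MKR fat replicate 1 it was -0.38 (adjusted p = 0.522, limma). In complex V, Atp5g3, one of the genes of the c ring, read 10.92, 11.39 and 11.37 against 11.70, 11.62 and 11.90, without overlap (-0.51, adjusted p = 0.309, and -0.36 without MKR fat replicate 1). Atp5a1, the alpha subunit, read 9.72, 10.05 and 10.19 against 10.54, 10.31 and 10.64 (-0.51, and -0.37 without it), again without overlap. Sdha, at 9.47, 9.78 and 9.88 against 10.13, 10.01 and 10.23, and Cyc1, at 7.14, 7.57 and 7.61 against 7.86, 7.87 and 7.91, had the same layout, with all MKR arrays lower and replicate 1 the lowest.

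**Figure D4:**
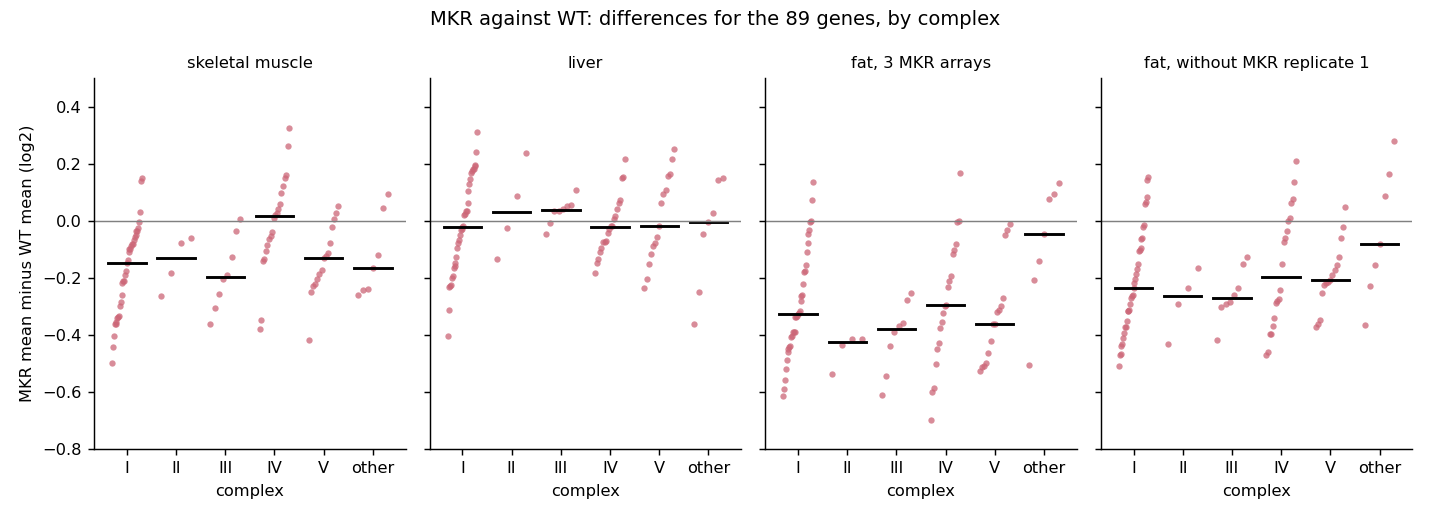
MKR minus WT log2 differences of the 89 genes (points) by complex in muscle, liver and fat, and in fat without MKR fat replicate 1, with the median of each group as a line. The medians of the 5 complexes lie below 0 in fat with and without that array, close to 0 in liver, and below 0 in muscle except in complex IV. Complex IV includes the forms at low intensity.

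Over all 89 genes the median deviation from the WT mean was -0.58, -0.29 and -0.13 on the MKR fat arrays and -0.01, -0.01 and 0.05 on the WT fat arrays, so the groups did not overlap. MKR fat replicate 1 was below all WT arrays in 71 genes, replicate 2 in 68 and replicate 3 in 51. They were above all WT arrays in 4, 5 and 18 genes. The shares of all genes were not computed for these counts of single arrays. Adipocyte markers deviated from the WT fat mean by -1.33 on MKR fat replicate 1 and by 0.09 and 0.10 on replicates 2 and 3. Macrophage markers deviated by -0.72, 0.29 and 0.32, against -0.18, -0.06 and 0.12 on the WT arrays. The part of the epididymis, adipocyte and macrophage markers in the result was not tested.

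**Figure D5:**
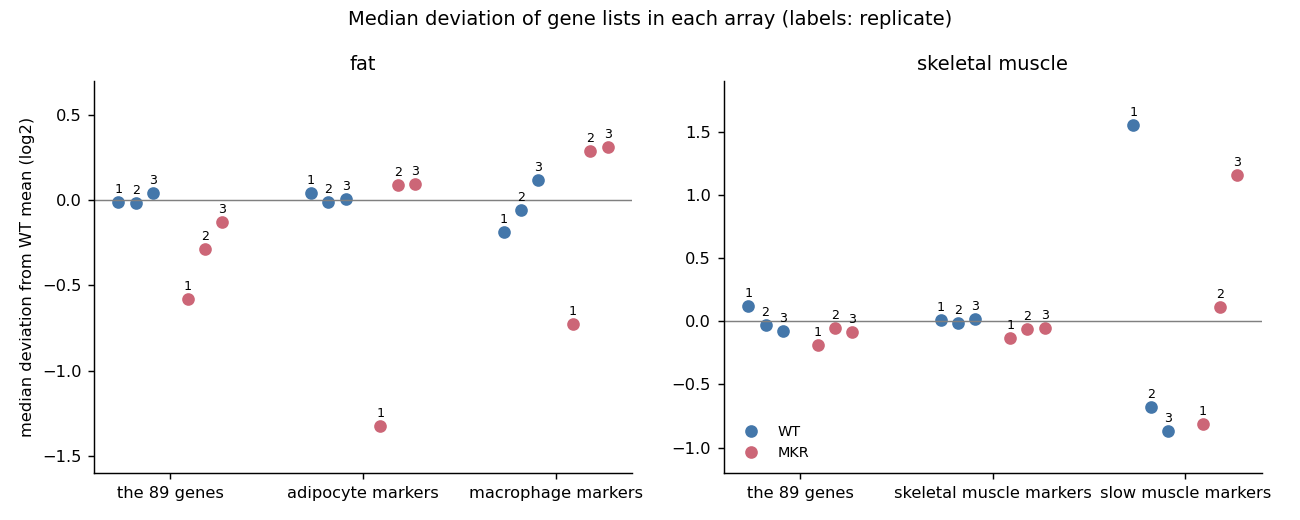
Median deviation from the WT mean of the same tissue, in log2 units (vertical axis), for the 89 genes and for marker lists on each fat array (left) and each muscle array (right), labelled by replicate. For the 89 genes the MKR fat arrays lie at -0.58, -0.29 and -0.13, below all WT fat arrays, and the muscle groups overlap, while the adipocyte markers are low on MKR fat replicate 1 alone.

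In liver the genes did not differ in a common direction. None was called (0.0344% of all genes), 47 of 89 had a lower MKR mean (51.4% of all genes) and the median was -0.02. At an unadjusted limma p under 0.05 there were 2 lower and 0 higher genes (2.51% and 2.49% of all genes), and 5 genes had all MKR arrays below and 4 above all WT arrays (5.31% and 4.11%). The differences ranged from -0.41 to 0.31, and the smallest adjusted p was 0.929, for the complex I accessory subunit Ndufc1 (-0.23). The median deviation of the 89 genes was 0.09, -0.04 and -0.07 on the MKR liver arrays and 0.13, -0.13 and -0.01 on the WT liver arrays, so the groups overlapped. All 6 core subunits of complex I overlapped as well, with differences from -0.19 (Ndufs8) to 0.24 (Ndufv1).

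Whether the genotype difference itself varied between tissues was tested by interaction terms. None of the 89 genes was called for muscle minus liver, muscle minus fat or fat minus liver, where 0.0737%, 0.103% and 0% of all genes were called. The median interactions were -0.12, 0.18 and -0.31, and the smallest adjusted p values were 0.364 (Atp5b), 0.356 (Cox6c) and 0.405 (Atp5a1). At an unadjusted limma p under 0.05 the counts were 2 higher and 11 lower for muscle minus liver (5.03% and 5.30% of all genes), 12 and 0 for muscle minus fat (4.09% and 3.93%), and 0 and 31 for fat minus liver (2.60% and 3.40%). Without MKR fat replicate 1 the median was 0.05 for muscle minus fat and -0.19 for fat minus liver. No member was called (0.251% and 0% of all genes), and the counts at an unadjusted limma p under 0.05 were 4 higher and 1 lower (4.70% and 5.63%) and 0 and 19 (4.70% and 4.59%).

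Of the other pathway genes, 1 was called between genotypes in muscle, where 0.201% of all genes were. The lists of these genes included 36 assembly factors, 57 mitochondrial ribosomal proteins and 17 regulators. Hccs, the heme lyase of cytochromes c and c1, fell by 0.95 ± 0.15 (SE) on the log2 scale in MKR muscle (adjusted p = 0.00682). It read 8.02, 7.57 and 7.70 in MKR and 8.71, 8.65 and 8.78 in WT muscle, without overlap. The call was lost with the median of the probe sets (-0.64, adjusted p = 0.232) and without MKR muscle replicate 2 (-0.85, adjusted p = 0.0556). In fat Hccs read 6.66, 6.92 and 7.05 against 7.76, 7.48 and 7.83, again without overlap (-0.81, adjusted p = 0.0699, and -0.70 with adjusted p = 0.0916 without MKR fat replicate 1). In liver it read 7.32, 7.01 and 6.84 against 7.61, 7.42 and 7.63 (-0.50, adjusted p = 0.509), and all MKR arrays were lower there too.

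In muscle 28 of 36 assembly factors (median -0.21), 50 of 57 mitochondrial ribosomal proteins (median -0.16), 13 of 17 regulators and 6 of 8 ATP handling genes had lower MKR means, and none was called. The smallest adjusted p in these lists was 0.159, for the ribosomal protein gene Mrps10 (-0.42). In fat 29 of 36 assembly factors and 52 of 57 ribosomal proteins had lower MKR means (29 and 44 without MKR fat replicate 1), with medians of -0.15 and -0.17 (-0.11 and -0.12 without it). Ppargc1a differed by -0.71 in fat (adjusted p = 0.518), and by -0.88 without that array (adjusted p = 0.196). Of the mitochondrially encoded genes none was called between genotypes in muscle or fat, and ATP6 had the smallest p in muscle (0.52, adjusted p = 0.413).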

How the data were processed

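Total RNA was hybridised to 18 single-colour arrays (Affymetrix Mouse Gene 1.0 ST) with 241419 probe sets. The authors normalized the signals by RMA with quantile normalization in Partek 6.3 and deposited log2 values. The deposited values, 1.52 to 3.82, have the range of a log2 taken of a log2 value, so 2 to the power of each value (2.87 to 14.15) was used as log2 intensity. This scale was inferred from the values and is not stated. Array signals, background and detection calls were not used here, so low levels have no background limit. Probe sets with 1 symbol (212138) were averaged by gene, with no filter on low values. Another 4672 probe sets carried several symbols and 24609 carried no symbol, and these were not used, and 11 of the 89 members had further probe sets shared with other symbols. Of 20422 symbols, 17626 were current, 2743 were updated through synonyms and 53 were kept.

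Groups came from the labels. A model of 6 group means was fitted to all 18 arrays with limma 3.58.1 (R 4.3.3), with variances moderated by empirical Bayes and p values adjusted by Benjamini-Hochberg across 20358 genes in each of 12 comparisons. The fit was checked on simulated data. The replicates are separate mice, and their number limits the precision. Genes named were the isoform and core subunits, the members with the largest changes or smallest p by complex, Igf1r, and up to 4 genes of each other pathway list. The genes described and all lists were chosen with earlier results of these data known. Tissues pair by mouse. Deviations from group means of the same mouse correlated across all 20358 genes at -0.12 to 0.20 (18 pairs, 4 over 0.1). Alternatives were the block, the deposited values as they stand, the median of probe sets, no dim genes, array centring, quantile normalization within tissue, fewer arrays, array weights and leaving out each array. Python 3.11.15, pandas 2.3.3 and matplotlib 3.10.9 were used for tables and figures.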

Additional observations from a re-analysis of the deposited data

How the results depend on the processing

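With array weights estimated by limma, 1 of the 89 genes was called between genotypes in muscle (Atp5f1, -0.46, adjusted p = 0.0429), 7 in fat (Cox7a2l, Cox5b, Cox4i1, Ndufb10, Ndufs6, Ndufs7 and Ndufv1, all lower in MKR mice) and 1 for the interaction muscle minus fat, against 0 each with equal weights. The shares of all genes called with array weights were 1.98%, 3.8% and 2.07%. The weight of MKR fat replicate 1 was then 0.159. Leaving out 1 array in turn gave 0 to 2 calls in fat and 0 in muscle and liver. The 2 calls (Cox4i1, -0.84, and Cox5b, -0.74) were made without MKR fat replicate 3, where 0.147% of all genes were called. With 1 array left out, the genes with a lower MKR mean numbered 75 to 82 in fat, 58 to 77 in muscle and 32 to 63 in liver. The median difference lay between -0.44 and -0.22 in fat, -0.16 and -0.06 in muscle and -0.06 and 0.06 in liver.

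Between WT tissues, leaving out 1 array gave 66 to 77 calls for muscle against liver, 78 to 81 for muscle against fat and 36 to 58 for fat against liver. In MKR mice it gave 50 to 71, 79 to 82 and 62 to 71. With the median of the probe sets 27 genes were called for WT fat against WT liver, where the mean gave 52. For the median and for most arrays left out, the shares of all genes called between tissues were not counted. So these counts cannot be set against all genes. On the deposited values as they stand the median difference of the 89 genes was -0.055 for MKR against WT fat, 0.108 for WT muscle against liver, 0.175 for WT muscle against fat and -0.069 for WT fat against liver, smaller because that scale is compressed.

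With the mouse as a replicate block for the tissue comparisons 74, 80 and 47 genes were called for muscle against liver, muscle against fat and fat against liver in WT mice and 67, 81 and 68 in MKR mice. The shares of all genes called with this block were not counted. With the replicate number as a block the genotype comparisons had 0 calls. Those numbers belong to different mice, whose deviations correlated across all genes at -0.31 to 0.29 (9 pairs, 4 over 0.1). The alternatives for counts of lower means and for single genes between WT tissues were chosen after seeing the data. The 2226 values for single genes under the alternatives cover only genes already called in the main comparisons. Of these values 2146 kept direction and call, 80 kept direction and lost the call, and 0 turned. The last count says little about robustness. Many alternatives, such as leaving out an array outside the compared groups, cannot change the difference. With 3 mice in each group, equal weights and no array left out, limma called none of the 89 genes between genotypes. Differences of similar size were called between tissues. Cox5b differed by -0.59 between MKR and WT fat (unadjusted p = 0.000491, adjusted p = 0.294, limma). Between WT fat and WT liver it differed by -0.52 (unadjusted p = 0.00126, adjusted p = 0.00542, limma). The adjusted p also depends on the other genes tested. Of all genes 0.0393% were called in the first comparison and 35.4% in the second.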
